A study of Rattus norvegicus with 15 samples.

Results

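The subject here is the microRNA (miRNA) profile of cardiomyocytes isolated from adult Sprague Dawley rat hearts 4 weeks after myocardial infarction (MI), set against cardiomyocytes of healthy age-matched control hearts (AMC). MI was induced by tying off the left coronary artery, and the labels describe these hearts as failing. Each group had 3 samples, so 6 of the 15 samples of the series enter the main comparison. All cells of both groups were plated on laminin for 1 h so that dying cells could be discarded, and RNA was taken from the attached cells with TRIzol. Another group, 3 samples of cardiomyocytes from rats given repeated doxorubicin (DOX) injections until heart failure, is used once for comparison. The 6 remaining samples were cells treated in culture. They and the DOX samples also helped to estimate the spread, to choose which miRNAs were tested and to scale the lanes. The labels give neither the age of the rats nor the part of the ventricle that was used, nor whether replicate samples stem from different animals, so every p-value below measures only the spread between these samples. They call the cells pure cardiomyocytes. The muscle miRNA miR-1 was the most abundant of all miRNAs in the 6 lanes, with a mean of 226152 CPM (counts per 1000000 miRNA counts after TMM scaling), and miR-133a and miR-499 were among the 10 most abundant.

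miRNAs are short RNAs that guide Argonaute proteins to messenger RNAs and lower their translation and stability. Pairing rests mainly on the seed, bases 2 to 8 counted from the 5′ end, so miRNAs that share a seed share many targets. Heart muscle is rich in miR-1, miR-133a, miR-208a and miR-499, while miR-126 is known from endothelial cells, the miR-199a pair and miR-21 from fibroblasts and fibrosis, and miR-146a and miR-150 from leukocytes. After an infarct the surviving muscle is remodelled beside a scar, and several of these cell types increase in the tissue.

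The sequences of the miRNAs on which the results turn are shown first, 5′ to 3′ and with the seed in capitals. All are RefSeq entries of the rat build GRCr8, which was matched to 91 of the 109 tested miRNAs, 25 by name and 66 through the major arm of an older name without an arm. The first set holds miRNAs known from fibroblasts, vessels and leukocytes that were called higher, and both miR-199a arms come from one hairpin inside the span of Dnm3 (chr13:77116255-77116277 and chr13:77116294-77116315, plus strand).
miR-199a-3p: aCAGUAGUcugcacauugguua
miR-199a-5p: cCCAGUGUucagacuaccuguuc
miR-126: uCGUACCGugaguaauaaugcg
miR-146a: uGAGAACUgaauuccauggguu
miR-21: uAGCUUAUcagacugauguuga

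The second set shows a shared seed. The 4 tested members of the miR-15 family all carry AGCAGCA at bases 2 to 8 and differ outside it. They come from 3 chromosomes: miR-15b (chr2:155555197-155555218) and miR-16 (chr2:155555343-155555364) lie side by side in the span of Smc4, miR-195 lies at chr10:55450509-55450529, and miR-322 at chrX:137726198-137726219 on the minus strand. miR-450a (chrX:137720985-137721006, minus strand) is the tested neighbour of miR-322 and has another seed.
miR-322: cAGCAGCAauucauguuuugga
miR-195: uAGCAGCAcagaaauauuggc
miR-15b: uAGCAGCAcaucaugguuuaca
miR-16: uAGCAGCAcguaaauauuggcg
miR-450a: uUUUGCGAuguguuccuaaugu

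The third set holds miRNAs that fell or that concern the muscle. miR-133a and miR-133b share the seed UUGGUCC and differ in the last base alone, so a probe may take signal from the other. miR-466d, within the span of Sfmbt2, has a run of alternating U and G that includes its seed. miR-3571 (chr18:2160340-2160362, plus strand) lies opposite miR-1 (chr18:2160339-2160360, minus strand), and 21 of its bases are complementary to it.
miR-133a: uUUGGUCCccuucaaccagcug
miR-133b: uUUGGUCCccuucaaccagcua
miR-1: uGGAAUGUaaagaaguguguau
miR-3571: uACACACUucuuuacauuccaua
miR-532-5p: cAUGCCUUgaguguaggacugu
miR-466d: aUGUGUGUguauguucuuuugu

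The lanes of both groups were read on the nCounter, which counts single miRNA molecules by a coloured barcode. The MI lanes had low counts of the 6 positive-control probes, 4229, 9661 and 6389, against 10053, 18360 and 17516 in the AMC lanes (ratio of means 0.442). The groups did not overlap, and the exact two-sided permutation test gave p = 0.1, the smallest that 3 against 3 lanes allow. Total miRNA counts overlapped, with 40381, 77375 and 47511 in MI lanes and 36977, 62663 and 60186 in AMC lanes. MI lanes thus held 8.33 ± 1.09 miRNA counts per positive-control count, against 3.51 ± 0.147 in AMC lanes (SD, n = 3 each). The 8 negative-control probes, which measure background, averaged 101 ± 7.85 CPM in MI lanes and 209 ± 21.6 CPM in AMC lanes. The lane background, the mean of the negative controls plus 2 SD, was 11.8, 21.1 and 17.0 counts in MI lanes and 19.6, 36.2 and 29.6 counts in AMC lanes. It left 107, 102 and 86 miRNAs above background in MI lanes and 82, 74 and 87 in AMC lanes, of 420 on the panel. The MI lanes were recorded as lanes 10 to 12 and the AMC lanes as 4 to 6, all at stage position 4. Lane position and group therefore cannot be told apart.

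**Figure D1:**
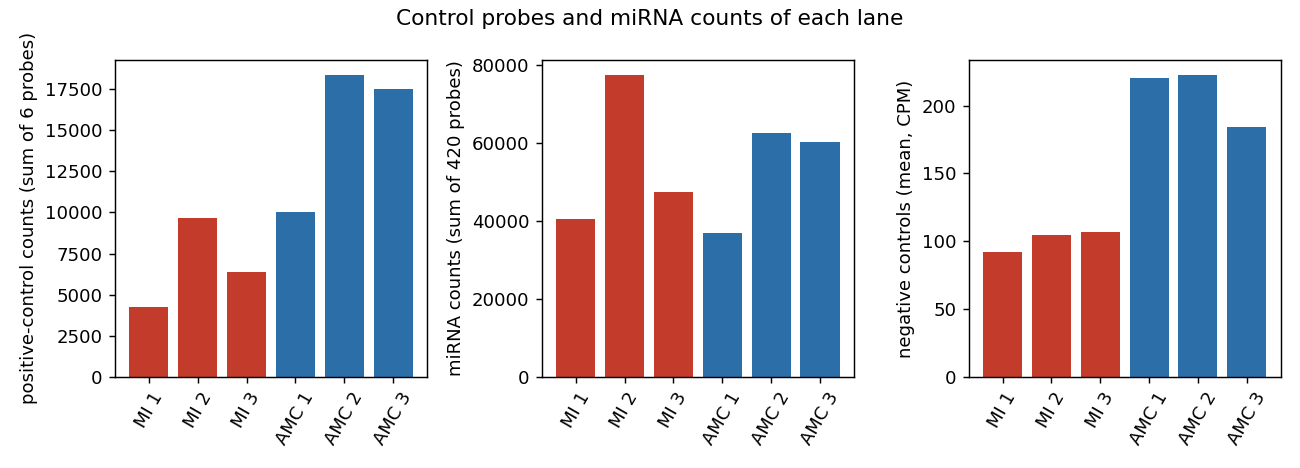
Bars give, for each MI lane (red) and each AMC lane (blue), the summed counts of the 6 positive controls, the summed counts of the 420 miRNA probes and the mean of the 8 negative controls in CPM. All MI lanes lie below all AMC lanes in positive-control and negative-control level, while the miRNA counts overlap.

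Above lane background, 63 miRNAs were seen in all 6 lanes, 78 in all 3 MI lanes and 70 in all 3 AMC lanes. Of the panel, 293 probes were above background in no MI or AMC lane. There were 9 miRNAs above background in every MI lane and in no AMC lane, which are miR-199a-5p, miR-195, miR-10a-5p, miR-106b, miR-139-5p, miR-181c, miR-301a, miR-342-3p and miR-361, some of them named here after their values were seen. The opposite held for miR-466d alone. In CPM the lane background was 282, 272 and 337 in MI lanes and 539, 575 and 495 in AMC lanes. A miRNA at an equal level can thus pass in MI lanes alone, as did miR-181c with means of 361 CPM in MI and 351 CPM in AMC. Of the 9, only miR-199a-5p and miR-195 were called in the test that follows. A miRNA was tested where 3 or more of the 15 lanes exceeded their background, which left 109, and edgeR called 41 at an adjusted p under 0.05 (37.6%), 17 higher in MI (15.6%) and 24 lower (22%). Within the 6 MI and AMC lanes 92 met that mark, so the others were tested only with the help of lanes of other groups. Among the calls, 2 higher and 9 lower ones had neither group above background in all its lanes. An unadjusted p under 0.05 was found for 48. Leaving out MI 2 or AMC 1 left 21 calls each, and leaving out AMC 2 or AMC 3 left 26 and 25. The MI and AMC lanes of all 41 did not overlap, but neither did those of 63 of the 109 (57.8%). The higher calls were spread over levels, with a median of 2314 CPM over the 6 lanes, and 12 of the 17 were above background in all 6 lanes. The lower calls sat low, with a median of 504 CPM, and 7 of the 24 were above background in all 6 lanes.

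The control probes give a scale for the lower calls. The 8 negative and 5 spike-in probes, for which no rat RNA exists, differed by a median log2 of -0.94, MI over AMC, after the same scaling, with a range of -1.86 to -0.08. Of the 24 lower calls 23 lay within that range, as did 30 of the 68 miRNAs that were not called, and miR-466d alone lay below it. The range ends below 0, so all 17 higher calls lie above it by definition. Whether the lower calls follow background was not tested, except that subtracting the mean of the negative controls from each lane left 11 of the higher and 12 of the lower calls (21.1% of the 109 called).

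**Figure D2:**
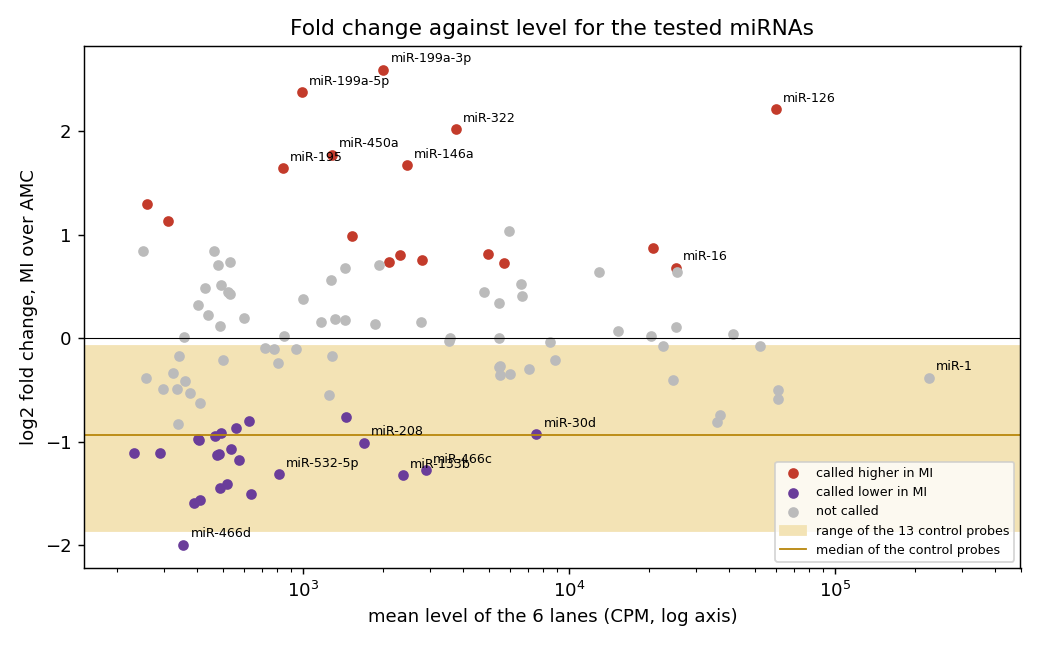
Each point is 1 of the 109 tested miRNAs, placed by its mean CPM over the 6 MI and AMC lanes (log axis) and its log2 fold change, MI over AMC. The shaded band is the range of the 13 control probes, -1.86 to -0.08, and holds 23 of the 24 lower calls. It ends below 0, so none of the 17 higher calls can lie in it.

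The miR-199a arms, known from fibroblasts, had the largest fitted rises without background subtraction. miR-199a-3p, which acts on cell growth and adhesion in several tissues, had 3830, 3874 and 2621 CPM in MI lanes, against 550, 635 and 518 CPM in AMC lanes. All MI lanes were far above all AMC lanes, and the difference was 6.04-fold (log2 2.59, SE 0.29, adjusted p = 1.72e-07). The other arm of the same hairpin, miR-199a-5p, had 1736, 2201 and 1033 CPM in MI lanes. It had 303, 302 and 351 CPM in AMC lanes, below their background, and the fitted difference was 5.20-fold (log2 2.38, SE 0.33, adjusted p = 4.58e-06). That fold depends on the background: after subtraction it was 12.7 for miR-199a-5p, and 15.3 without MI 3, while miR-199a-3p was at 8.40. In counts that was 73, 171 and 52 in MI lanes, against 11, 19 and 21 in AMC lanes. miR-21, which is known to promote fibrosis, had 5994, 7169 and 5758 CPM in MI lanes and 3465, 3622 and 3695 CPM in AMC lanes. The groups were apart by 1.76-fold (log2 0.81, SE 0.32, adjusted p = 0.0442), a call that was lost when any single lane of either group was left out (adjusted p = 0.0577 to 0.177 for miR-21).

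The list of fibroblast miRNAs had 5 tested members of 8 on the panel. Of these 3 were called higher, beside 15.6% over all tested miRNAs, and none lower. The median log2 was 0.81 beside -0.03 over all tested miRNAs. The other 2, miR-10a-5p and miR-152, did not pass. miR-152 had 1427, 1493 and 1311 CPM in MI lanes and 963, 1398 and 1321 CPM in AMC lanes, which overlap. miR-214, which is transcribed with miR-199a, was at 11, 12 and 7 counts in MI lanes and 2, 11 and 6 in AMC lanes, under the background of every lane. The summed level of the 5 tested members was 11080 to 15303 CPM in MI lanes and 5775 to 6530 CPM in AMC lanes. In RNA from a whole preparation, more or fewer cells of a type and more or less RNA per cell cannot be told apart, and the part of other cell types in these values was not tested.

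Endothelial miR-126, encoded within Egfl7 (chr3:29813219-29813240) and needed for vessel integrity, made the largest absolute change. It had 131043, 117880 and 46623 CPM in MI lanes, against 20104, 21447 and 22102 CPM in AMC lanes. MI replicate 3 was well below the other MI lanes and still more than 2-fold above each AMC lane. The difference was 4.64-fold (log2 2.21, SE 0.32, adjusted p = 5.55e-06). miR-126 was the only tested member of the endothelial list of 3, since miR-221 and miR-222 were under background in all 6 lanes.

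Among the leukocyte miRNAs, miR-146a, which dampens inflammatory signalling, had 4020, 5341 and 1827 CPM in MI lanes and 1293, 937 and 1304 CPM in AMC lanes. It rose 3.18-fold (log2 1.67, SE 0.35, adjusted p = 0.000895). miR-150, found in mature lymphocytes, had 9895, 11249 and 2919 CPM in MI lanes and 3905, 3829 and 3979 CPM in AMC lanes. MI replicates 1 and 2 were above every AMC lane and MI replicate 3 below all of them, and the difference did not pass (log2 1.04, SE 0.61, adjusted p = 0.226). The other 4 members of the list were not tested. miR-142-3p, the most widely used leukocyte marker, had 20, 21 and 13 counts in MI lanes and 5, 18 and 11 in AMC lanes, above background in 1 lane. The myeloid miR-223 had 6, 10 and 8 counts in MI lanes and 11, 17 and 10 in AMC lanes, above background in none.

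Erythroid miRNAs left no signal above background apart from the widely expressed miR-16. The erythroid miR-451 had 3, 3 and 4 counts in MI lanes and 4, 9 and 6 in AMC lanes, and miR-144 was likewise under background in all 6 lanes, so miR-16 was the 1 tested member of that list. The smooth muscle pair from one transcript, miR-145 and miR-143, was above background in all 6 lanes but did not pass, and miR-145 ranked 5 among all miRNAs by mean level. miR-145 had 48407, 58921 and 45114 CPM in MI lanes and 57865, 49758 and 53316 CPM in AMC lanes (log2 -0.08, SE 0.28), and miR-143 gave a log2 of 0.16 (SE 0.34). None of the 7 epithelial miRNAs and none of the 4 miRNAs typical of liver, brain and islet was above background in any of the 6 lanes.

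The miR-15 family represses cyclins and the survival factor Bcl2. All 4 of its tested members, of 6 on the panel, were called higher, beside 15.6% over all tested miRNAs. The family had a median log2 of 1.31 beside -0.03 over all tested miRNAs. This is the seed group AGCAGCA shown above, and of the 16 seeds shared by tested miRNAs with a matched sequence it was the one with every member called. miR-322, known from muscle differentiation, had 7969, 7503 and 2542 CPM in MI lanes, against 1568, 1366 and 1521 CPM in AMC lanes (4.05-fold, log2 2.02, SE 0.39, adjusted p = 0.000511). miR-195, reported to hold back cardiomyocyte division in mice, had 1522, 1635 and 655 CPM in MI lanes. In AMC lanes miR-195 had 385, 413 and 418 CPM, under their background, and the fitted difference was 3.13-fold (log2 1.65, SE 0.37, adjusted p = 0.00171), or 5.37-fold after background subtraction. In both, MI replicate 3 lay between the other MI lanes and the AMC lanes.

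The 2 neighbours on chromosome 2 changed less. miR-15b had 2188, 2201 and 1728 CPM in MI lanes and 715, 1271 and 1070 CPM in AMC lanes (1.98-fold, log2 0.98, SE 0.30, adjusted p = 0.0138). miR-16 had 32707, 35831 and 24602 CPM in MI lanes and 19224, 20764 and 18073 CPM in AMC lanes (1.60-fold, log2 0.68, SE 0.26, adjusted p = 0.0395). Their groups did not overlap. The call of miR-15b was lost without MI 2 or AMC 1 (adjusted p = 0.0552 and 0.0589), and that of miR-16 without any lane but MI 3 (adjusted p = 0.0698 to 0.183). The family members miR-497 and miR-503 were not tested. miR-497, the partner of miR-195, had 14, 36 and 8 counts in MI lanes and 7, 7 and 9 in AMC lanes, above background in 2 of the 6. Summed over the 4 tested members, the family held 44387, 47170 and 29526 CPM in MI lanes and 21892, 23815 and 21082 CPM in AMC lanes, and miR-16 made up most of it in each.

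miR-322 and its neighbour miR-450a rose together. miR-450a had 2664, 2433 and 854 CPM in MI lanes, against 523, 556 and 652 CPM in AMC lanes, where it was above background in 1 lane. The difference was 3.42-fold (log2 1.77, SE 0.34, adjusted p = 0.000432). The loci lie within chrX:137720952-137726219, and 4 further members of this X-linked cluster, miR-351, miR-503, miR-542-3p and miR-542-5p, were under background in all 6 lanes. The highest of their counts was 21, in AMC 2.

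Before background subtraction, further rises were smaller than those of miR-195 and miR-450a. The let-7 family, which favours the differentiated state and whose 8 tested members share the seed GAGGUAG, had 2 members called higher and none lower, beside the 15.6% called higher over all tested miRNAs, with a median log2 of 0.54 beside -0.03 over all tested. let-7c had 23835, 27749 and 28911 CPM in MI lanes and 17326, 13329 and 13509 CPM in AMC lanes (1.82-fold, log2 0.87, SE 0.29, adjusted p = 0.0271). let-7e had 2926, 4337 and 3237 CPM in MI lanes and 2338, 1970 and 1939 CPM in AMC lanes (1.69-fold, log2 0.76, SE 0.28, adjusted p = 0.0395). let-7c is the one clear rise in which MI replicate 3 was the highest MI lane. The calls rest on few lanes: let-7c was lost without MI 2, MI 3, AMC 2 or AMC 3 (adjusted p = 0.0577 to 0.1), and let-7e without MI 2 or any AMC lane (adjusted p = 0.0507 to 0.211). Probes of this family may share signal because their targets differ at few bases. let-7b and miR-98 did not pass, with log2 values of 0.64 (SE 0.29) and 0.68 (SE 0.27).

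miR-132, induced by neuronal and growth signals and linked to hypertrophy in mice, had 428, 592 and 258 CPM in MI lanes and 138, 254 and 184 CPM in AMC lanes. Those are 18, 46 and 13 counts in MI lanes and 5, 16 and 11 in AMC lanes, and it was above background in 2 MI lanes and no AMC lane (log2 1.13, SE 0.43, adjusted p = 0.0395). miR-338, carried within Aatk, had 20, 31 and 12 counts in MI lanes and 4, 10 and 10 in AMC lanes (log2 1.30, SE 0.42, adjusted p = 0.0201). After background subtraction the folds were 12.2 for miR-338 and 11.5 for miR-132, and neither was above background in any AMC lane. Both calls depend on single lanes: miR-132 was lost without MI 1, MI 2, AMC 1 or AMC 3 (adjusted p = 0.0730 to 0.263), and miR-338 without MI 1, MI 2 or AMC 1 (adjusted p = 0.0623 to 0.0695). Among the miR-17-92 clusters and their relatives, 1 of 6 tested members was called, near the 15.6% called higher over all tested. That was miR-25, from an intronic cluster of Mcm7, with 2902, 3102 and 1906 CPM in MI lanes and 1678, 1430 and 1638 CPM in AMC lanes (log2 0.74, SE 0.27, adjusted p = 0.0395), lost without any lane but MI 3 (adjusted p = 0.0577 to 0.181). Its neighbours miR-93 and miR-106b gave log2 values of 0.23 and 0.32 and did not pass. The remaining higher calls, miR-151 and miR-181a, gave log2 values of 0.80 and 0.72.

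**Figure D3:**
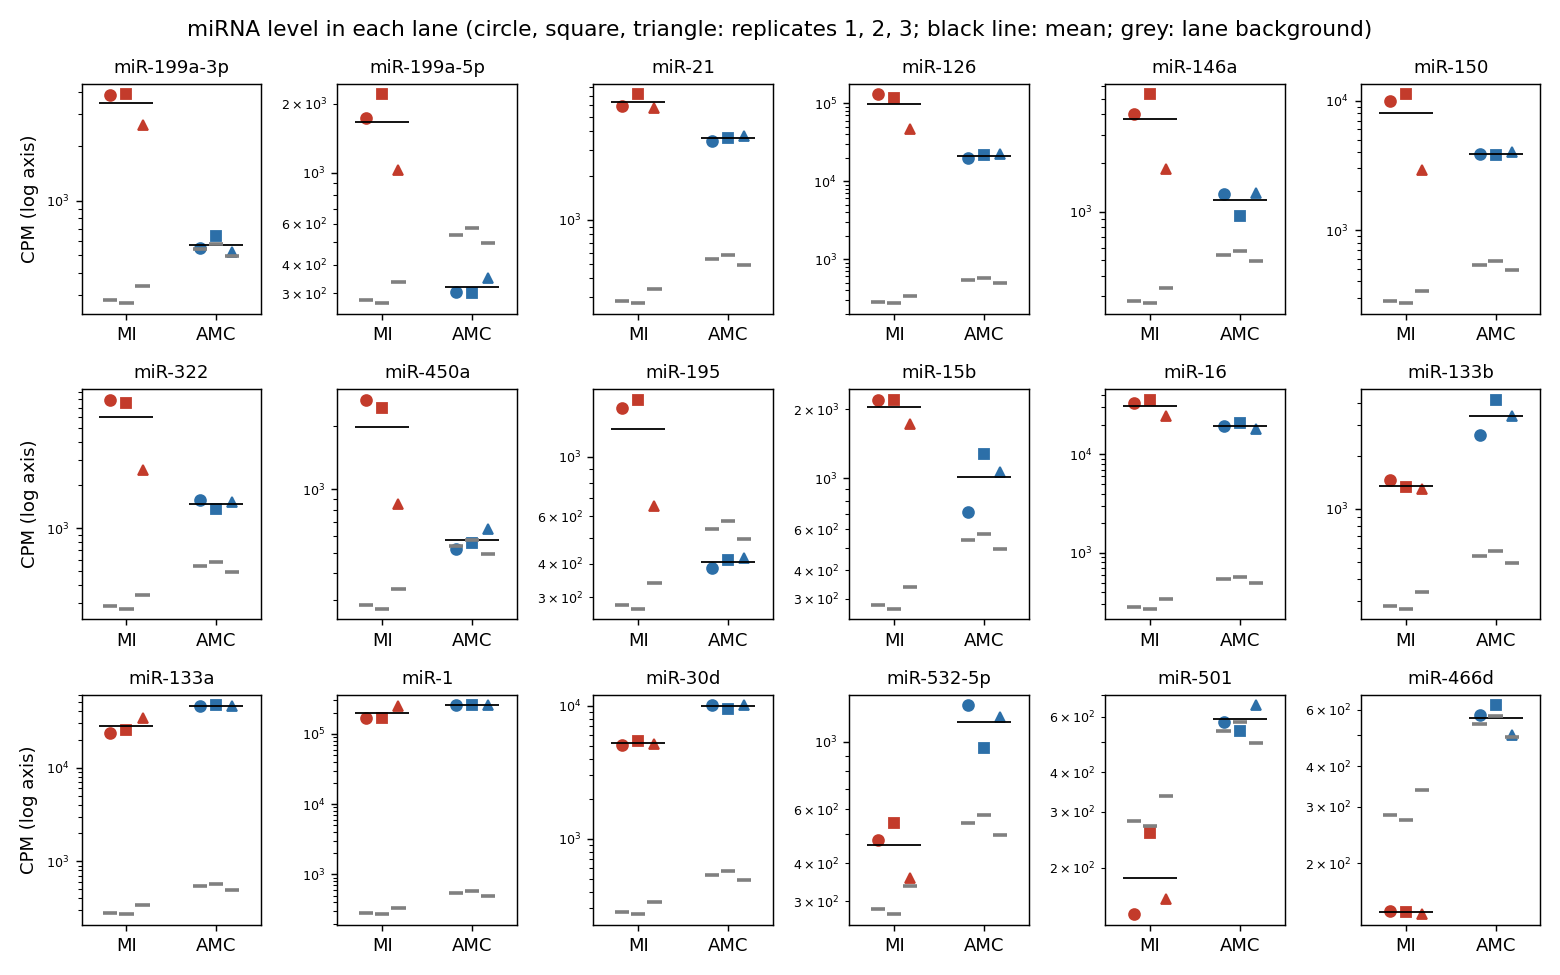
Levels of 18 miRNAs in CPM on log axes, each with its own range, MI lanes in red on the left and AMC lanes in blue on the right; circles, squares and triangles are replicates 1, 2 and 3, black lines group means, and grey ticks the lane background. MI replicate 3 lies apart from MI 1 and 2 for miR-126, miR-146a, miR-150, miR-322, miR-450a and miR-195, and close to them for miR-21, miR-133b, miR-30d and miR-466d.

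Muscle miRNAs were called lower in MI cells or did not pass, and their direction depends on the scaling. Under positive-control scaling miR-1 had a log2 of 0.91, miR-133a of 0.55, miR-499 of 0.50, miR-208 of 0.29 and miR-133b of -0.00. miR-133b, carried with miR-206 in a muscle-specific transcript, had 1451, 1326 and 1291 CPM in MI lanes, against 2613, 4162 and 3360 CPM in AMC lanes (2.50-fold lower, log2 -1.32, SE 0.32, adjusted p = 0.00211). Its counts, 61, 103 and 65 in MI lanes and 95, 262 and 201 in AMC lanes, were above background everywhere. The far more abundant miR-133a had 23478, 25355 and 34014 CPM in MI lanes and 45984, 46724 and 45926 CPM in AMC lanes. These did not overlap, but the difference did not pass (log2 -0.74, SE 0.32, adjusted p = 0.0709). miR-1, which shares its transcript with miR-133a on chromosome 18, had 168056, 170109 and 251580 CPM in MI lanes and 257586, 254652 and 254926 CPM in AMC lanes (log2 -0.38, SE 0.23, adjusted p = 0.228). MI replicate 3 was here close to the AMC lanes. miR-499, encoded in the myosin gene Myh7b, had 26261, 28045 and 24503 CPM in MI lanes and 46561, 45770 and 45742 CPM in AMC lanes. The lanes of miR-499 were tight within both groups, yet it did not pass in the fit over 15 lanes (log2 -0.81, SE 0.59, adjusted p = 0.325). The fit shares its spread with the other groups, and the DOX lanes of miR-499 had 51535, 16059 and 13525 CPM. A fit of the 6 lanes alone called it (adjusted p = 0.000285 for miR-499). That fit newly called 12 of the 67 named miRNAs, miR-499 among them, and lost none of the named calls. Why the fits differ was not tested.

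miR-208, the miRNA of the myosin gene Myh6, was called lower with 1070, 1210 and 1092 CPM in MI lanes and 2035, 2351 and 2407 CPM in AMC lanes (log2 -1.01, SE 0.30, adjusted p = 0.0137). Per 1000 counts of the brightest positive control, its probe held 14.1, 12.7 and 11.6 counts in MI lanes and 9.62, 10.5 and 10.7 in AMC lanes. The authors lowered 3 probes by a share of a positive control, miR-208 among them. Their corrected counts gave a log2 of -0.11 (adjusted p = 0.968) for miR-208. Of the 7 muscle miRNAs on the panel 5 were tested, 2 were called lower and none higher, with a median log2 of -0.81 beside -0.03 over all tested, of which 22% were called lower. One of these calls is miR-208. miR-206 and miR-208b-3p were under background in all 6 lanes. Summed over the 5, muscle miRNAs held 220316, 226044 and 312479 CPM in MI lanes and 354779, 353659 and 352362 CPM in AMC lanes.

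The miR-30 family is plentiful in cardiac muscle, and 1 of its 5 tested members was called lower, near the 22% over all tested. miR-30d had 5067, 5406 and 5143 CPM in MI lanes and 10093, 9485 and 10065 CPM in AMC lanes (1.90-fold lower, log2 -0.92, SE 0.30, adjusted p = 0.0201). That call was lost without MI 1, MI 2, AMC 1 or AMC 3 (adjusted p = 0.0586 to 0.0626 for miR-30d). The members miR-30a, miR-30e and miR-30c share the seed GUAAACA and had log2 values of -0.35, -0.54 and -0.35, and miR-30b-5p gave -0.27. miR-30a was low in 1 MI lane, with 6613, 5019 and 2919 CPM in MI lanes and 5638, 6688 and 6203 CPM in AMC lanes. The collagen repressors of the miR-29 family had none of 3 members called, with log2 values of -0.50 for miR-29a, -0.29 for miR-29b and -0.40 for miR-29c. miR-29a had 49453, 52421 and 50316 CPM in MI lanes and 73789, 68219 and 73111 CPM in AMC lanes, which do not overlap.

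Several lists held no call in either direction, beside 37.6% called over all tested miRNAs. None of 5 members of the miR-23/24/27 clusters, known from vessels and hypertrophy, passed, although miR-23a had 31090, 31404 and 30460 CPM in MI lanes and 21452, 19573 and 18658 CPM in AMC lanes (log2 0.64, SE 0.29, adjusted p = 0.0875). None of 5 members of the miR-99 and miR-125 group passed. Its most abundant one, miR-125b-5p, had 43435, 41211 and 41301 CPM in MI lanes and 35093, 43832 and 43769 CPM in AMC lanes. Neither miR-26a nor miR-26b passed, and none of 4 metabolic miRNAs did, the largest log2 among these being -0.58 for miR-22 (SE 0.29). The hypoxia-induced miR-210 had 809, 682 and 735 CPM in MI lanes and 908, 842 and 869 CPM in AMC lanes (log2 -0.24, SE 0.34, adjusted p = 0.650). Of 10 tested miRNAs reported raised in rodent hypertrophy, 4 rose and none fell (median log2 0.53, beside -0.03 and 15.6% called higher over all tested), and all 4 also belong to the fibroblast or miR-15 lists. The p53-responsive miR-34a was called lower at 12, 21 and 13 counts in MI lanes and 21, 36 and 28 in AMC lanes, above background in 1 lane of each group. Its call was lost without any single lane (adjusted p = 0.0620 to 0.118 for miR-34a). miR-194 did not pass. Of the 49 miRNAs of the Dlk1-Dio3 cluster on the panel 2 were tested, and miR-544 was called lower while miR-543 did not pass.

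The lower calls with clear counts were few. Of the 7 above background in all 6 lanes, miR-208 and miR-466c are among the 3 probes that the authors lowered by a share of a positive control. Per 1000 counts of the brightest positive control, miR-466c was at 22.8, 17.99 and 17.2 in MI lanes and 17.9, 17.1 and 20.7 in AMC lanes. The other 5 were miR-133b, miR-30d, miR-532-5p, miR-345-5p and miR-423, of which miR-345-5p and miR-423 were lost without MI 3 (adjusted p = 0.0891 each in edgeR). Under positive-control scaling the log2 was 0.29 for miR-208, 0.037 for miR-466c, -0.00 for miR-133b and -0.03 for miR-532-5p. It was 0.38 for miR-30d and 0.56 for miR-345-5p. Whether any of the 7 follow the positive control was not tested. miR-532-5p had 476, 541 and 357 CPM in MI lanes and 1320, 953 and 1204 CPM in AMC lanes (2.49-fold lower, log2 -1.31, SE 0.27, adjusted p = 0.000594). Its counts were 20, 42 and 18 in MI lanes and 48, 60 and 72 in AMC lanes. It lies within Clcn5, and its neighbour miR-501 on the same strand was called lower too, at 6, 20 and 8 counts in MI lanes, under background, and 21, 34 and 39 in AMC lanes (log2 -1.59, SE 0.35, adjusted p = 0.00114). The 4 other members of this cluster on the panel were not tested. Among them miR-532-3p, the other arm of the same hairpin, had 14, 20 and 9 counts in MI lanes and 2, 17 and 8 in AMC lanes, above background in 1 lane.

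miR-466d gave the largest fall. It had 6, 11 and 7 counts in MI lanes and 21, 39 and 30 in AMC lanes, that is 143, 142 and 139 CPM in MI lanes and 578, 620 and 502 CPM in AMC lanes (3.98-fold lower, log2 -1.99, SE 0.40, adjusted p = 0.000511). It was under background in every MI lane and just above it in every AMC lane. miR-3594-3p and miR-3594-5p, the arms of one hairpin in Cep131, were both called lower (log2 -1.50, SE 0.35, and log2 -0.97, SE 0.34). miR-598-5p had 14, 23 and 11 counts in MI lanes and 27, 41 and 51 in AMC lanes (log2 -1.40, SE 0.31, adjusted p = 0.00114). The others named by size of the fall were miR-3571, miR-421, miR-544, miR-511 and miR-628, with log2 values of -1.56, -1.45, -1.17, -1.13 and -1.12. The highest count of these 5 in any of the 6 lanes was 55, of miR-544 in AMC 3.

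Some tested miRNAs lie opposite one another. miR-3571 is complementary to miR-1 over 21 bases, miR-3596c to let-7e over 21 bases and miR-3596d to let-7f over 20 bases. miR-3571 had 8, 14 and 13 counts in MI lanes and 16, 35 and 49 in AMC lanes, under background except in 1 AMC lane. miR-3596c was called lower (log2 -1.07, SE 0.32) while let-7e on the other strand was called higher (log2 0.76, SE 0.28). Whether these probes read RNA of the named strand was not tested. Of 22 groups of tested miRNAs whose loci lie within 10000 bases on one strand, 3 had every member called higher (miR-199a-3p with miR-199a-5p, miR-15b with miR-16, and miR-322 with miR-450a). A further 2 had every member called lower, the miR-3594 arms and miR-501 with miR-532-5p. Over all tested miRNAs 15.6% were called higher and 22% lower.

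One MI lane, replicate 3, differed strongly from its group. When counts of lane pairs were compared over probes, chi-square divided by its degrees of freedom was 17.6 and 15.1 for its pairs with MI 1 and MI 2, 2.07 between those, and 1.56 to 1.89 between AMC lanes. Over the 63 miRNAs above background in all 6 lanes, it was more than 2-fold below the mean of the other MI lanes in 6 and more than 2-fold above in none. No other MI or AMC lane differed that much from its group in any of the 63. The 6 are miR-150 (0.276 times the mean of MI 1 and 2), miR-322 (0.329), miR-126 (0.375), miR-146a (0.390), miR-26b (0.408) and miR-29b (0.421), of which miR-150, miR-26b and miR-29b were not called between the groups. Among the tested miRNAs outside those 63, 5 more were over 2-fold lower in MI 3, which are miR-450a (0.335), miR-140 (0.336), miR-543 (0.384), miR-195 (0.415) and miR-342-3p (0.472). The opposite held for miR-1949, at 2.59 times and above background in 1 MI lane.

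In the opposite direction miR-1 was at 251580 CPM in MI 3 and at 168056 and 170109 CPM in MI 1 and 2, with miR-133a at 34014 CPM in MI 3 against 23478 and 25355 CPM. MI 3 was the lowest MI lane in 15 of the 17 higher calls. It still lay above every AMC lane in all 17, with a median of 1.60 times the AMC mean, against 2.66 times for MI 1 and 2. In the 24 lower calls it was as low as the others, with medians of 0.432 times the AMC mean for MI 3 and 0.454 times for MI 1 and 2. MI 3 was part of the fit that made the 41 calls, so its place beyond the AMC lanes is not separate support. Without MI 3 there were 34 calls (31.2%), 16 higher and 18 lower, and 32 of them were among the 41. The folds grew to 5.86 for miR-126, 5.21 for miR-322, 4.38 for miR-450a, 3.99 for miR-146a and 3.88 for miR-195. let-7c and miR-21 then missed the threshold in edgeR, at an adjusted p of 0.0577 each. The other 7 of the 9 lost calls were lower ones: miR-511, miR-345-5p, miR-423, miR-34a, miR-3585-5p, miR-455 and miR-3583-3p, with adjusted p = 0.0528 to 0.114 in edgeR.

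**Figure D4:**
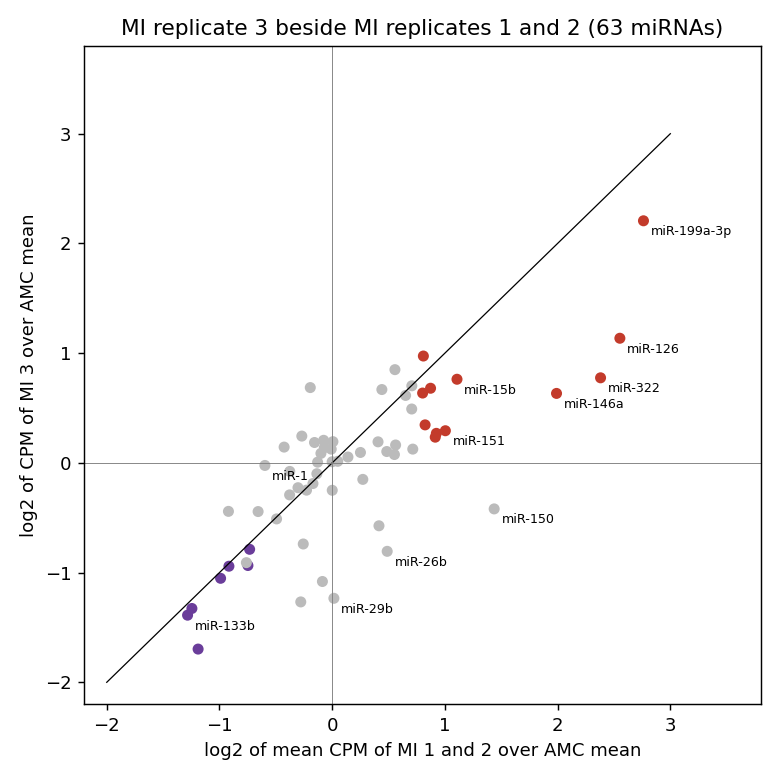
For the 63 miRNAs above background in all 6 lanes, the level in MI replicate 3 (vertical) is set against the mean of MI replicates 1 and 2 (horizontal), both as log2 over the AMC mean; red points were called higher, purple lower, grey not called, and the line marks equal values. miR-126, miR-322, miR-146a and miR-150 lie far below the line, and the lower calls lie near it.

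The low positive controls bear on every direction given above. When lanes were scaled by the positive-control sum, the median log2 of all tested miRNAs moved by 1.29, and 53 miRNAs were called higher and 1, miR-466d, lower. All 17 higher calls were kept, and 16 of the 24 lower calls took the opposite sign, among them miR-30d (log2 0.38), miR-208 (0.29) and miR-34a (0.30). miR-133b was then at -0.00 and miR-532-5p at -0.03. Positive-control scaling moves the log2 values upward, as does the spike-in scaling that follows. Under these, only lower calls could change sign, so the kept signs of the higher calls are no support for them. Scaling by the 5 spike-in probes, which held only 18 to 38 counts a lane, moved the median by 0.73 and left 33 higher and 1 lower. Scaling by the 4 housekeeping mRNAs moved it by -0.21 and left 8 higher and 19 lower. Of these mRNAs, Actb and B2m themselves had MI means of 2.87 and 2.15 times the AMC means in CPM, without overlap. Gapdh and Rpl19 were at 0.99 and 0.93 times. No sign of the 41 calls turned under these scalings except in the positive-control one. The amount of RNA put into each lane is not given in the labels, so the level of all miRNAs together is not settled by these lanes.

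**Figure D5:**
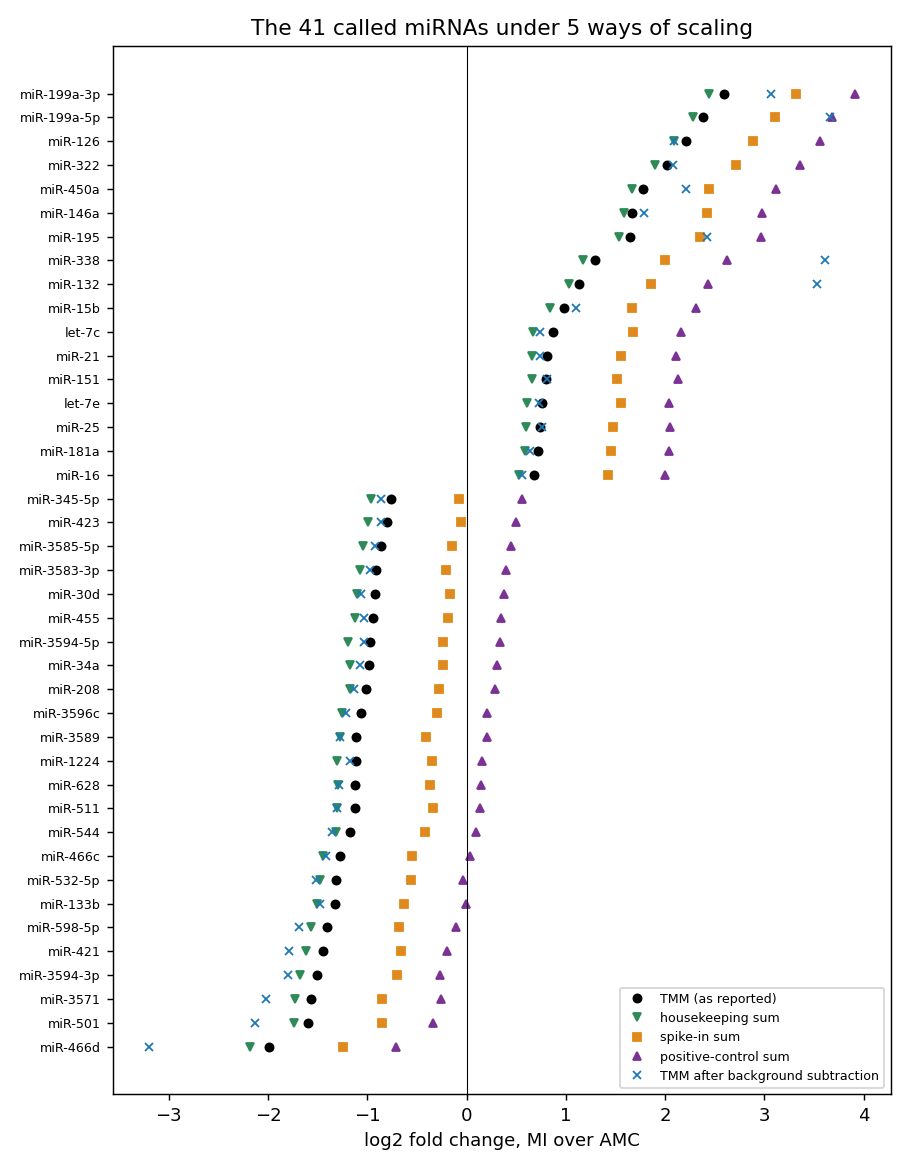
The log2 fold change, MI over AMC, of the 41 called miRNAs under TMM (black), housekeeping (green), spike-in (orange) and positive-control (purple) scaling and after background subtraction (blue crosses). The 17 higher calls stay right of 0 under each, while 16 of the 24 lower calls cross 0 under positive-control scaling. Positive-control and spike-in scaling move the values to the right, so under these only lower calls could cross 0.

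There were 8 named miRNAs called under every alternative that tested them. They are miR-199a-3p, miR-199a-5p, miR-126, miR-322, miR-450a, miR-146a and miR-195, all higher, and miR-466d, lower. Outside positive-control scaling, their log2 values ranged from 2.44 to 3.32 for miR-199a-3p, 2.10 to 3.93 for miR-199a-5p, 1.95 to 2.89 for miR-126, 1.76 to 2.71 for miR-322, 1.52 to 2.59 for miR-450a, 1.40 to 2.76 for miR-195, 1.31 to 2.42 for miR-146a and -3.20 to -1.25 for miR-466d. Of the 8, miR-199a-5p, miR-195, miR-450a and miR-466d were tested under 21 alternatives, the others under 23. The filters that require every lane above background left them out, so those filters could not count against them. The first 3 were not above background in all AMC lanes, and miR-466d in no MI lane. Their ranges thus rest on counts near or under background in that group.

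Against the hearts injured by DOX, which are also described as failing, 35 of 109 miRNAs were called (32.1%), 15 higher and 20 lower in MI. Single lanes weighed on this count, which was 22 without MI 1, 17 without MI 2, 53 without DOX 1 and 21 without DOX 2 or DOX 3. miR-199a-5p had 1736, 2201 and 1033 CPM in MI lanes, against 232, 302 and 316 CPM in DOX lanes, 5.96-fold apart (SE 0.32 on the log2 scale, adjusted p = 1.16e-06). miR-21 had 5994, 7169 and 5758 CPM in MI lanes and 3445, 1454 and 1578 CPM in DOX lanes, 2.90-fold apart (adjusted p = 0.000829). miR-322 had 2676, 1454 and 1047 CPM in DOX lanes and was 3.45-fold higher in MI, and miR-450a, at 1202, 878 and 631 CPM in DOX lanes, was 2.17-fold higher. miR-126, at 39485, 30541 and 22364 CPM in DOX lanes, was higher in MI by a log2 of 1.68. Of the 17 miRNAs called higher against AMC 8 were also higher against DOX, and of the 24 called lower 15 were also lower. Over all tested miRNAs, 13.8% were called higher and 18.3% lower against DOX. Both comparisons use the same 3 MI lanes, so the overlaps are not independent support.

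Other miRNAs did not pass against DOX, which does not show that their levels were alike. miR-133b, at 2099, 919 and 964 CPM in DOX lanes, gave a log2 of 0.01 (SE 0.32) for MI over DOX, and miR-133a, miR-499 and miR-30d gave -0.03, -0.04 and -0.20. miR-146a missed the threshold (log2 0.85, SE 0.34, adjusted p = 0.0552), as did miR-16, miR-15b and let-7c. miR-150 was at 11177, 21668 and 11132 CPM in DOX lanes, all above MI 1 and MI 3 (log2 -0.87, SE 0.60, adjusted p = 0.289). The negative controls held 125.2, 171 and 216 CPM in DOX lanes, all above the MI lanes, and moved with the lower calls here too. Their part was not tested.

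The authors' deposited table for MI and AMC, made after quantile normalization, lists 392 miRNAs, and 47 of its p-values are under 0.05. It holds 39 of the 41 calls. Of these 36 have the same direction there, 26 of them with a p under 0.05 in the authors' deposited table. The exceptions are miR-208 and miR-466c, higher in MI there (means of 5.31 in MI and 3.49 in AMC for each), and miR-25, lower in MI there (202 in MI and 211 in AMC). Those means come from the same MI and AMC lanes, so the shared directions are not separate support. The authors' deposited table gives miR-199a-3p a mean of 276 in MI and 61.5 in AMC, and miR-126 6772 in MI and 2193 in AMC. For miR-1, the top-ranked miRNA in both groups, the authors' deposited table has the same mean of 20341 in both and p = 1, as quantile normalization gives equal ranks equal values. Its p for miR-322 is 0.0573 and for miR-16 0.0649 in the authors' deposited table, whereas both passed in the fit over 15 lanes.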

How the data were processed

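The authors deposited nCounter barcode counts for 15 lanes, listed here under estimated counts because the same columns also hold lane attributes that are not whole; all probe values were whole. Their corrected sheet lowers 3 probes by a share of a positive control. Further deposited signal is scaled by positive controls and by the miRNA sum, and the authors' comparison table gives quantile-normalized mean signal with a p-value. No software for these steps is stated.

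All tests used the uncorrected counts. A miRNA was tested when above lane background (mean + 2 SD of 8 negative controls) in at least 3 lanes. edgeR 4.0.16 in R 4.3.3 gave TMM factors and a robust quasi-likelihood test, with 5 group means over 15 lanes. P-values were adjusted by Benjamini-Hochberg over all 109. CPM are miRNA counts over the TMM-adjusted miRNA total, and SEs are from the fit. Lane totals were 36977 to 77375 in the MI and AMC lanes, and intervals would cover counting error only. Alternatives included DESeq2 1.42.0 and limma 3.58.1 (pseudocount 1). The procedure was tested on simulated data that held no difference in background between the groups. That test therefore cannot speak to the lower calls near background. RefSeq gave sequences and gene spans. Replicate numbers did not pair the lanes (see the closing section).

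Members and miRNA lists were chosen with earlier results of these data known. Named miRNAs are the 12 higher and 12 lower calls with the largest change and no overlap, all tested members of the muscle, miR-30, miR-15, cluster and cell type lists, up to 4 of each other list by p, and the 10 most abundant.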

Additional observations from a re-analysis of the deposited data

Results flagged for a closer look

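The difference between MI and DOX hearts is the same as the gap between their effects against shared AMC lanes, and 35 miRNAs passed it in edgeR. The log2 values of MI over DOX, higher in MI, were 2.58 for miR-199a-5p, 1.79 for miR-322, 1.77 for miR-199a-3p, 1.68 for miR-126, 1.54 for miR-21, 1.48 for miR-140, 1.33 for miR-301a, 1.22 for miR-143, 1.21 for miR-338, 1.16 for miR-195 and miR-19b, 1.11 for miR-450a, 1.09 for let-7i, 1.01 for miR-27a and 0.96 for miR-106b.

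Those lower in MI were -1.69 for miR-466d, -1.61 for miR-501, -1.56 for miR-3589, -1.52 for miR-3571, -1.49 for miR-544, -1.45 for miR-598-5p, -1.42 for miR-3594-3p, -1.27 for miR-532-5p, -1.21 for miR-466c, -1.11 for miR-32, -1.04 for miR-628, -1.01 for miR-1949, -0.99 for miR-3594-5p, -0.96 for miR-3596c, -0.95 for miR-455, -0.91 for miR-208, -0.89 for miR-3583-3p, -0.80 for miR-30c, -0.77 for let-7d and -0.71 for let-7a. Of the 35, 12 were not called against AMC: miR-140, miR-301a, miR-143, miR-19b, let-7i, miR-27a, miR-106b, miR-32, miR-1949, miR-30c, let-7d and let-7a. The cause was not tested.

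The panel's housekeeping mRNA probes were outside the main measurement. Actb held 2673 ± 309 CPM in MI lanes and 931 ± 8.23 in AMC lanes, and B2m 10168 ± 3197 in MI lanes and 4729 ± 724 in AMC lanes (SD, n = 3 each), with no overlap. Gapdh and Rpl19 overlapped.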

How the results depend on the processing

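The comparison of MI with AMC gave 41 calls, 17 higher and 24 lower. Positive-control scaling gave 53 higher and 1 lower, spike-in scaling 33 and 1, and housekeeping scaling 27 calls with 8 higher. The authors' corrected counts gave 11 higher. Background subtraction left 23, 11 higher and 12 lower, and without MI 3 it left 14 lower. No filter gave 37 higher and 6 lower. A filter on all 15 lanes left 10, with 4 higher and 6 lower, on all 6 lanes 16, with 9 and 7, and on 3 of the 6 lanes 10 higher. These filters tested fewer or more miRNAs; elsewhere the cause was not tested. Dropping the 3 least typical lanes gave 68 calls with 35 higher. These were MI 3, DOX 1 and replicate 3 of the DOX-treated cultures. Leaving out lanes that lie far from their group lowers the spread, so the larger count is no support for the calls. Leaving out 1 lane gave 21 (without MI 2 or AMC 1) to 34 calls, 7 to 16 higher and 12 to 18 lower. The all-6-lane filter and background subtraction without MI 3 were chosen after seeing the data.

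MI against DOX gave 35 calls, 22 with positive-control scaling (0 lower in edgeR, 2 at an unadjusted p under 0.05), 16 with housekeeping (6 lower) and 18 with spike-in scaling (6 lower). Leaving out 1 lane gave 17 to 53 calls (53 without DOX 1), 6 to 27 higher and 11 to 26 lower.

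Under positive-control scaling 48 tested miRNAs turned above 0, 26 of them named. Among the named, those called with either scaling were at a log2 of 1.18 for miR-103, 1.22 for miR-107 and miR-145, 0.29 for miR-208, 1.01 for miR-24, 0.38 for miR-30d, 0.30 for miR-34a, 0.037 for miR-466c, 0.13 for miR-511, 0.092 for miR-544 and 0.15 for miR-628. The other 15, among them miR-1, miR-133a, miR-499, miR-29a and miR-22, were called with neither. Replicate numbers did not pair the lanes (correlations of -0.24, -0.16 and -0.18). A fit with the replicate block gave 53 calls, 22 higher and 31 lower, including all 41. A block by stage position was not run, since the MI and AMC lanes share stage position 4. Counts near background have little precision.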
